A study of Mus musculus with 145 samples.

Results

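Of 51 mouse mammary tumours that had grown out under the PI3K alpha inhibitor BYL719, 18 had a piggyBac site of 10 or more reads in Nf1. The other 33 had no such site, which does not show that they lacked any insertion in Nf1. Both sets were compared for insertions in all other genes. The tumours were chosen by their read counts inside Nf1, so Nf1 itself is not tested. A tumour was counted as Nf1-hit when at least 1 site of 10 or more reads lay inside the authors' gene row for Nf1 (identifier 18015, chr11:79337892-79581609 on mm10, 244 kb), with each position and strand kept only in the library that had most reads there. The Nf1-hit tumours made up 35.3% of the resistant tumours (95% Clopper-Pearson interval 22.4 to 49.9) and came from 15 of 25 mice. That interval, like the one for untreated tumours below, takes tumours as independent, although many shared a mouse. Mice were read from the titles, which name 48 where the labels state 53 for the study, and 1 resistant title with a missing dot was read as a further tumour of a mouse already named. The same rule found 8 of 94 untreated tumours (8.51%, 3.75 to 16.1, 6 of 23 mice), so 145 libraries were examined in all. A pair of untreated libraries, both unhit, carry the same mouse and gland, 1 of them with the suffix R2. They had 1 and 0 sites and were counted separately, and counted once they leave 93 untreated tumours (8.60% Nf1-hit). Every mouse carried WAP-Cre, the Cre-dependent alleles LSL-PB (the piggyBac transposase) and LSL-PIK3CA(H1047R), and the transposon line ATP1. Mating switched Cre on in the mammary gland through the WAP promoter, and Cre in turn released the transposase and the mutant PIK3CA, so both started together and in the same cells. Resistant tumours were those whose volume increased in at least 3 consecutive measurements over 3 weeks of daily BYL719 at 30 mg/kg, begun at 250 mm3. Untreated tumours had the same alleles and no BYL719. The data are reads of transposon and genome junctions in tumour DNA and hold no expression values, so the labelled tissue could not be checked against marker genes.

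Nf1 encodes neurofibromin, a GTPase-activating protein that returns RAS to its inactive form, and cells without it keep more RAS active downstream of growth factor receptors. BYL719 (alpelisib) blocks the PI3K catalytic subunit that the H1047R change activates, and RAS-MAPK signalling is a parallel branch from the same receptors. The ATP1 transposon moves by cut and paste into TTAA, and can either drive or truncate the gene it enters, depending on where and in which orientation it lands. A tumour with many insertion sites is more likely to have one in any gene, Nf1 included, so the number of sites has to be set beside every comparison.

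The sites that made a tumour Nf1-hit are shown first, because they define the groups. The leading sites of the 7 tumours with an Nf1 site of over 150 reads were these, each read along the strand of the insertion, with the target motif in capitals and the next 4 bases in lower case.

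Resistant tumour 8, chr11:79378016, plus strand, 11401 reads: TTAAagat
Resistant tumour 8, chr11:79364071, plus strand, 7348 reads: TTAActtg
Resistant tumour 10, chr11:79426297, plus strand, 2251 reads: TTAAgagt
Resistant tumour 10, chr11:79437937, plus strand, 1328 reads: TTAAaaaa
Resistant tumour 10, chr11:79356910, minus strand, 1176 reads: TTAAgcaa
Resistant tumour 35, chr11:79424010, plus strand, 834 reads: TTAAagga
Resistant tumour 48, chr11:79493325, minus strand, 763 reads: TTAAgtaa
Resistant tumour 38, chr11:79415708, plus strand, 332 reads: TTAActca
Resistant tumour 32, chr11:79524149, minus strand, 220 reads: TTAAgcta
Resistant tumour 49, chr11:79512379, minus strand, 182 reads: TTAAatag

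The bases after the motif differed among these sites, and the 45 Nf1 sites of the 18 tumours lay at 45 different positions, all of them at TTAA. They ran from 79351808 to 79568616, over most of the gene row, and 25 had the orientation of Nf1 while 20 had the opposite one. RefSeq starts Nf1 at 79339590 on the plus strand, 1698 bp inside the row, and 0 of the 45 sites lay before that start. Whether a site fell in an exon or an intron was not determined, since no gene model was used. The 10 Nf1 sites of untreated tumours were likewise all at TTAA, with 5 in each orientation.

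Nf1 was the leading insertion in 1 tumour and a minor one in most. In tumour 8 the site of 11401 reads was the largest of the library, and Nf1 held 13.9% of its kept reads. Tumour 10 had 20 Nf1 sites, the highest at rank 4 of its library, and 4.69% of its kept reads. Both tumours came from 1 mouse, whose remaining tumour (tumour 9) was unhit. In tumour 49 the single Nf1 site had 182 reads and 1.41% of kept reads. The other 15 tumours had under 0.3% of their reads in Nf1. Across all 18 the top Nf1 site had a median of 88.5 reads (10 to 11401) and a median rank of 205 within its library, and 13 tumours had 1 Nf1 site each.

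Near the threshold of 10 reads, several hit tumours lay just inside. Tumour 20 was hit with 10 reads, tumour 27 with 11, tumours 3 and 11 with 18 each and tumour 12 with 20. Just outside it, unhit tumour 19 kept an Nf1 site of 6 reads and unhit tumour 26 a site of 1 read, and the other unhit tumours kept no Nf1 read. Before positions were assigned to the library with most reads, 12 unhit tumours held some Nf1 read, the highest being those 6. A few Nf1 positions had 10 or more reads in several libraries. The site at 79493325 had 763 reads in resistant tumour 48 and 269 in untreated tumour 87, from different mice. Those at 79437937 and 79494349 had 1328 and 64 reads in tumour 10 and 35 and 22 in tumour 8 of the same mouse, and that at 79380327 had 113 reads in tumour 10 and 18 in tumour 30. Whether these shared positions are separate insertions was not tested.

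**Figure D1:**
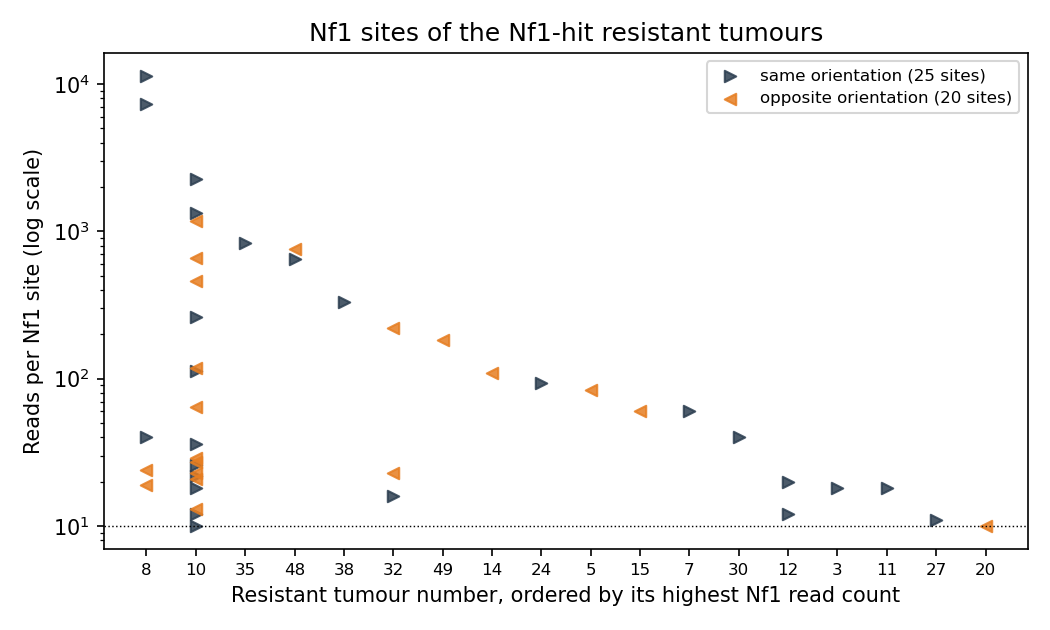
Reads per Nf1 site (log axis) in each of the 18 Nf1-hit resistant tumours, ordered by their highest site; right-pointing triangles are sites in the orientation of Nf1 and left-pointing ones the opposite, and the dotted line marks the 10 reads of the hit rule. Tumours 8 and 10 stand at the left with several sites of over 1000 reads, while the 5 tumours at the right reach at most 20 reads.

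Nf1-hit tumours had more insertion sites than unhit ones. Counted outside Nf1, sites of 10 or more reads numbered a median of 954.5 (56 to 3300) in the Nf1-hit and 370 (0 to 2178) in the unhit tumours. The ranges overlapped, but the 6 tumours with most sites included 5 Nf1-hit ones, and unhit tumour 26 was the exception. Ordered by number of sites and split into groups of 17, the Nf1-hit tumours numbered 1 in the low group (0 to 338 sites), 5 in the middle group (370 to 638) and 12 in the top group (738 to 3300), which is 5.88%, 29.4% and 70.6%. Since the chance of an Nf1 site grows with the number of sites, this is a description of the rule and was not tested. Total reads had a median of 142346 in Nf1-hit and 126828 in unhit libraries.

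Inside single mice the hit tumours were mostly those with more sites. Of 17 mice with several resistant tumours, 6 had no Nf1-hit tumour, none had only hit ones, and 11 had both kinds (30 tumours). In 8 of those 11 mice every Nf1-hit tumour had more sites than every unhit one. Tumours titled "Tgtumor" were Nf1-hit in 15 of 35 cases (42.9%) and those titled "Mouse" in 3 of 16 (18.8%), with a median of 636 and 241.5 sites (two-sided Fisher exact test p = 0.122, adjusted p = 0.245 over both labels compared). Tumours of the anterior glands were hit in 14 of 38 cases (36.8%) and those of the posterior glands in 4 of 13 (30.8%, p = 0.750 by the same test, also adjusted p = 0.750). Neither label passed the test, and tumours of 1 mouse are not independent.

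The genes that were testable followed the number of sites. A gene was tested when at least 5 tumours had it hit and at least 5 did not, which held for 761 of 7119 gene rows hit. Nf1-hit tumours had a median of 170.5 tested genes hit (14 to 402) and unhit tumours 80 (0 to 315). Per 100 sites the order turned, with a median of 17.2 tested genes in Nf1-hit and 19.7 in unhit tumours. Within the middle group the medians were 101 (74 to 121, n = 5) and 95 (80 to 115, n = 12), and within the top group 215 (119 to 402, n = 12) and 164 (139 to 315, n = 5). In the top group the Nf1-hit tumours still had more sites, at a median of 1250.5 against 1013.

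**Figure D2:**
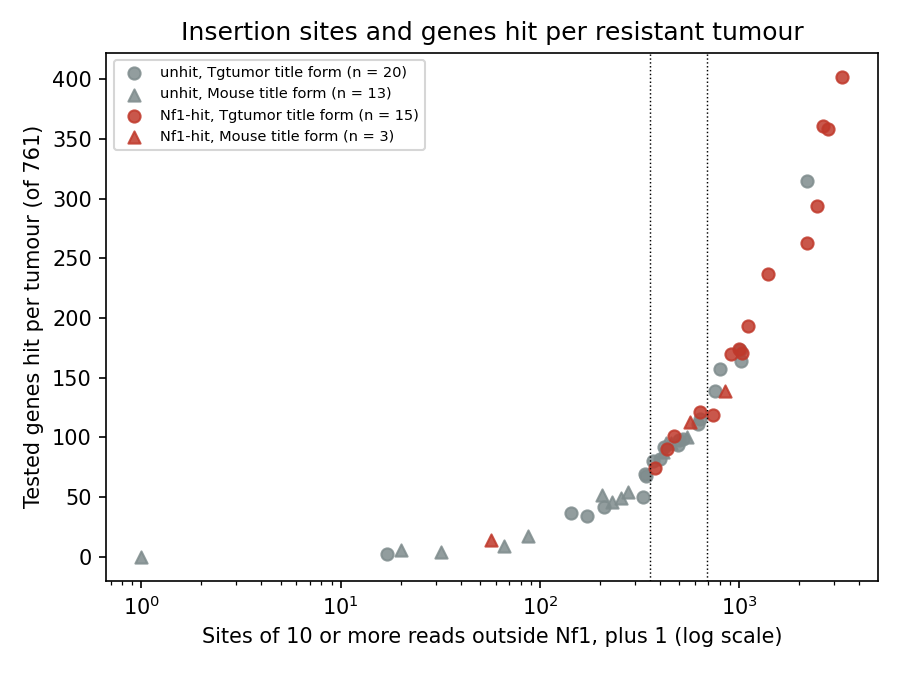
Tested genes hit per resistant tumour against its number of sites of 10 or more reads outside Nf1 plus 1 (log axis); red marks are Nf1-hit and grey marks unhit tumours, circles and triangles are the title forms, and dotted lines part the groups of 17 tumours. Red and grey marks lie along 1 curve, with red at the high end up to 402 genes.

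No difference in the other properties of the libraries passed the test once tumours were compared within the groups by number of sites. Those groups only partly match the number of sites, as the top one ran from 738 to 3300. Labels were permuted within the groups of 17 (two-sided, 100000 resamples, 7 measures). Chromosome 10, taken here as the donor chromosome of the transposon, held 17.1% of all sites of these tumours and 144 of the 761 tested genes. It took 17.5% ± 5.86 (SD, n = 18) of sites in Nf1-hit and 22.2% ± 5.01 (n = 32, without the tumour of 0 sites) in unhit tumours. Within the groups this share was 2.64 points lower in Nf1-hit than in unhit tumours (permutation p = 0.150, adjusted p = 0.942). Without the grouping the difference had passed, at 4.65 points lower in Nf1-hit tumours (permutation p = 0.00488, adjusted p = 0.0342). Sites inside gene rows made up 50.1% ± 1.93 and 49.2% ± 4.33, sites on the plus strand 51.2% ± 2.13 and 50.3% ± 4.60, and sites at TTAA 96.0% ± 2.82 and 92.8% ± 6.04. The site with most reads outside Nf1 held 7.34% ± 5.60 of reads in Nf1-hit and 10.6% ± 16.1 in unhit tumours. All 7 measures had an adjusted permutation p of 0.942, which belongs to the differences within the groups. Those were -0.0656 points for gene rows, 0.415 for the plus strand, 0.276 for TTAA and 1.41 for the top site. For gene rows and the top site the sign was thus opposite to that of the means above. Within the groups log10 total reads differed by -0.0495 and the share of the top 5 sites by 1.28 points.

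No gene passed the test for being hit more or less often in Nf1-hit tumours. Each gene's hits were fitted by logistic regression with Firth's penalty on the Nf1 state and log10 of the number of sites, and 0 of 761 genes (0.0%) passed at a Benjamini-Hochberg adjusted p under 0.05, the lowest being 0.964. At an unadjusted p under 0.05 there were 33 genes (4.34%), 17 hit more often (2.23%) and 16 less often (2.1%). Without the number of sites in the fit, Fisher's exact test also gave 0 genes (0.0%, lowest adjusted p = 0.0584) but 182 at an unadjusted p under 0.05 (23.9%), 181 of them hit more often in Nf1-hit tumours. The raw share of hit tumours was higher in the Nf1-hit group for 697 genes (91.6%), by a median of 13.6 points over all tested genes. After adjustment the odds ratio of Nf1-hit to unhit tumours was above 1 for 390 genes (51.2%), with a median of 1.02. Within the 11 mice that held both kinds of tumour (14 Nf1-hit, 16 unhit), an exact test stratified by mouse, added after the data were seen, passed for 0 of 760 genes (lowest adjusted p = 0.563). It gave 61 genes (8.03%) at an unadjusted p under 0.05. That test takes no account of the number of sites, which in 8 of the 11 mice was higher in every Nf1-hit tumour than in the unhit tumours, and 614 of the 760 genes were hit more often in them.

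**Figure D3:**
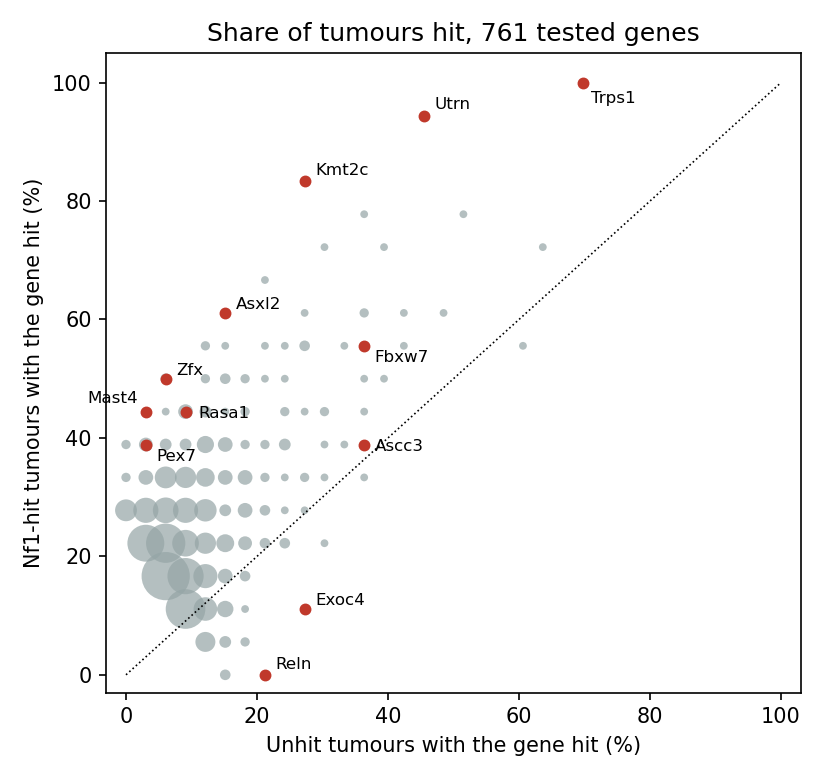
Percent of the 18 Nf1-hit tumours (vertical) against percent of the 33 unhit tumours (horizontal) with each of 761 tested genes hit; grey circles grow with the number of genes at the same pair of values, red points are named genes and the dotted line marks equal shares. Most circles lie above the line, with Trps1 at 100% and 69.7% in the top right and Reln at 0% and 21.2% in the lower right.

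**Figure D4:**
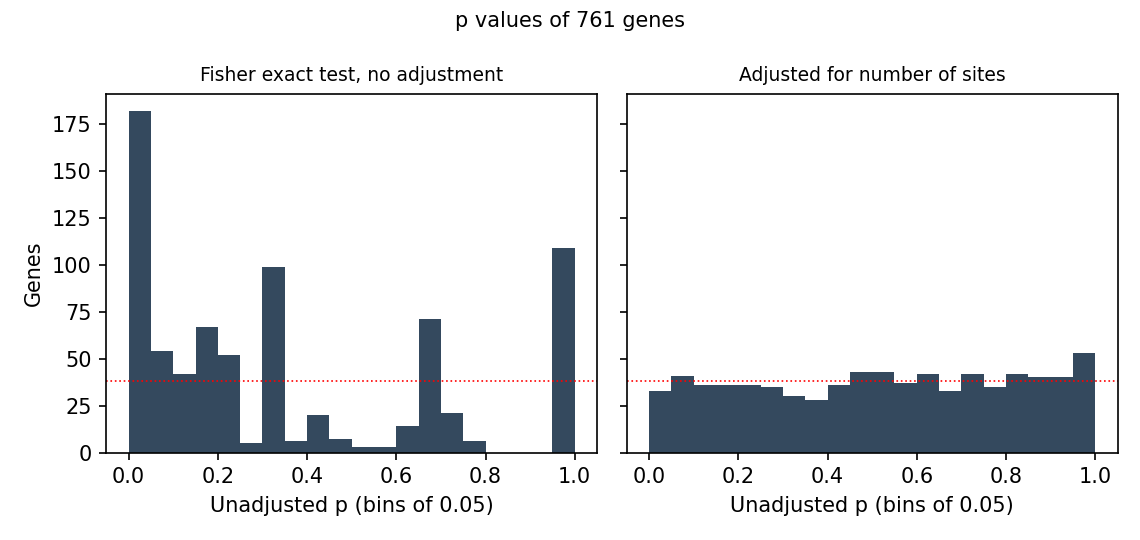
Number of genes per bin of unadjusted p, for Fisher's exact test (left) and for the fit with the number of sites (right); the red dotted line is the level of 761 genes spread evenly over the bins. The first bin holds 182 genes on the left and 33 on the right, where the bins stay near the line.

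The 10 genes with the smallest p among those hit more often in Nf1-hit tumours are given as the top of a ranking in which none passed. Pex7, the receptor that brings a class of enzymes into peroxisomes (chr10:19860090-19909674), was hit in 7 of 18 Nf1-hit tumours (38.9%) and 1 of 33 unhit tumours (3.03%). Its highest site per Nf1-hit tumour had 10 to 819 reads (median 93). The adjusted odds ratio was 16.2 (95% interval 2.46 to 219, unadjusted p = 0.00283, adjusted p = 0.964 by Firth's logistic regression). Fam172a (chr13:77706690-78166240) had the same counts and an odds ratio of 14.4 (2.22 to 180). Mast4, a microtubule-associated kinase (chr13:102732489-103336492), was hit in 8 Nf1-hit tumours and 1 unhit tumour, with an odds ratio of 10.2 (1.57 to 113).

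Sclt1, a protein of the centriole's appendages, Stxbp5l, a syntaxin-binding protein, and Scaf8, which binds RNA polymerase II, were each hit in 5 Nf1-hit and 0 unhit tumours. A gene hit in 5 tumours can reach a Fisher exact p no lower than 0.00365, which is the value these genes have without adjustment. Rfx3, a transcription factor of ciliated cells, was hit in 5 and 1 tumours, and Dgkb, a diacylglycerol kinase, in 6 and 2.

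Utrn and Asxl2 were the 2 genes of this ranking hit in 10 or more tumours. Utrn, which encodes utrophin, a relative of dystrophin (chr10:12382188-12871365), was hit in 17 of 18 Nf1-hit tumours (94.4%) and 15 of 33 unhit tumours (45.5%), with an odds ratio of 7.41 (1.41 to 74.4, unadjusted p = 0.0166). In the middle group of tumours it was hit in 5 of 5 Nf1-hit and 7 of 12 unhit tumours, and in the top group in 11 of 12 and 4 of 5. Asxl2, a chromatin regulator of the Polycomb system (chr12:3424857-3506849), was hit in 11 (61.1%) and 5 (15.2%), with an odds ratio of 4.97 (1.22 to 21.8, unadjusted p = 0.0257). Its shares were 3 of 5 against 2 of 12 in the middle group and 8 of 12 against 2 of 5 in the top group, so it was higher in both.

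Among genes hit less often in Nf1-hit tumours, Reln ranked first. Reln encodes reelin, a secreted guidance protein (chr5:21884454-22346705), and was hit in 0 of 18 Nf1-hit and 7 of 33 unhit tumours (21.2%). Its 7 unhit tumours had top sites of 12 to 907 reads and came from 6 mice. They included 3 of the 5 unhit tumours of the top group, in which none of the 12 Nf1-hit tumours had a Reln site. The odds ratio was 0.0163 (8.1e-05 to 0.299, unadjusted p = 0.00234, adjusted p = 0.964 by Firth's logistic regression).

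Dab1, the adaptor that relays reelin signals inside the cell, came next, but its raw counts ran the other way. It was hit in 4 of 18 (22.2%) and 4 of 33 tumours (12.1%), whereas the fitted odds ratio, with the number of sites in the model, was 0.00702. That value was unstable, as the natural log of Dab1's odds ratio ran from -5.75 to 0.710 over 18 alternative settings. In the top group it was hit in 4 of 12 Nf1-hit and 3 of 5 unhit tumours. The same split between raw and fitted direction was seen for Spag16, a protein of the sperm tail, Ascc3, a DNA helicase, and a row on chromosome 8 without a RefSeq symbol, with 4 and 6, 7 and 12, and 5 and 4 tumours.

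Exoc4, a subunit of the exocyst, was hit in 2 Nf1-hit and 9 unhit tumours (odds ratio 0.0958, 0.00773 to 0.643). Lims1, an adaptor of focal adhesions, was hit in 0 and 5, Ppfibp2, a liprin, in 1 and 5, Sema3d, a semaphorin, in 2 and 5, and Dpp6, a potassium channel subunit, in 1 and 4. The unhit tumours with a site came from 7 mice for Exoc4, 4 for Lims1 and 3 for Dpp6. Tumours 26, 40 and 41, all with an Exoc4 site, were of 1 mouse that had no Nf1-hit tumour. Tumours 26 and 40 of that mouse also had Lims1 and Dpp6 sites, so these counts are not of independent tumours. For Lims1 the untreated tumours ran the opposite way, with a hit in 5 of 8 Nf1-hit and 18 of 86 unhit tumours.

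**Figure D5:**
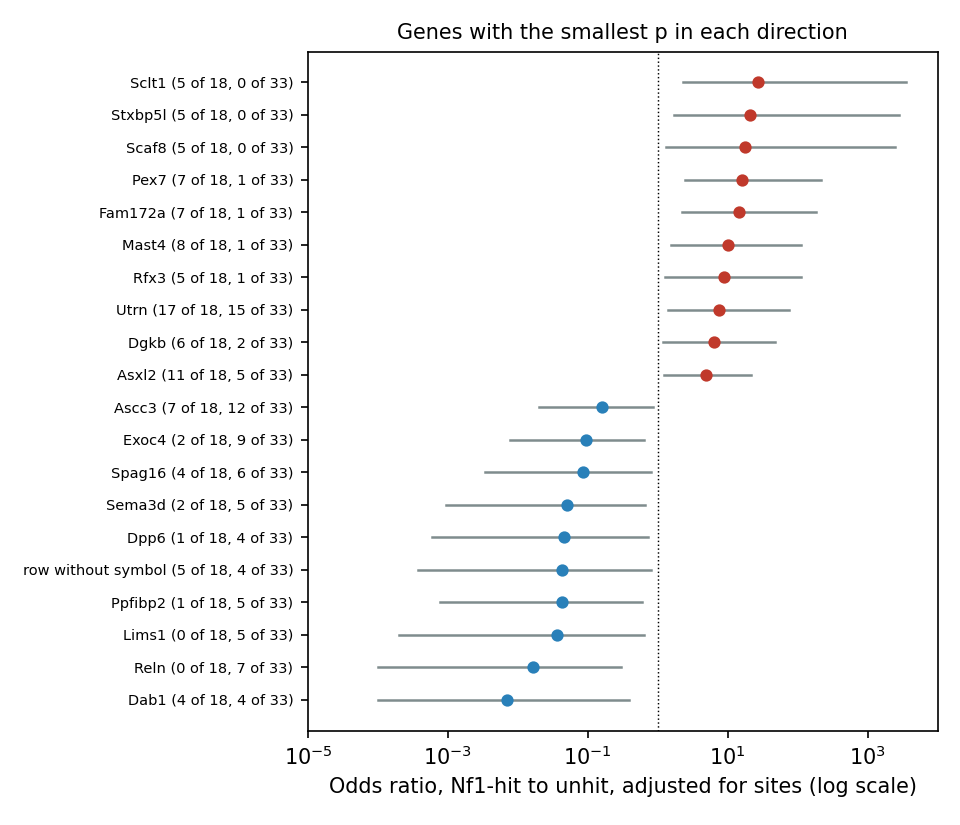
Adjusted odds ratio of a hit in Nf1-hit against unhit tumours (log axis) for the 10 genes with the smallest p in each direction, with 95% profile intervals as lines and the tumours hit of 18 and of 33 beside each name; the lower ends for Reln and Dab1 are clipped at the drawn limit. The intervals are wide, as for Asxl2 (1.22 to 21.8) and Pex7 (2.46 to 219), and those of the genes with 0 hits in one of the sets are wider than both.

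Genes of the RAS-MAPK pathway were hit in more of the Nf1-hit tumours, as were most groups of genes, and none passed the test. Of 14 further brakes on the RAS-MAPK pathway with a gene row, Nf1 left out, 8 were hit in some resistant tumour. Of these, 4 could be tested, with odds ratios above 1 for 2 of them and below 1 for 2. Rasa1, which encodes another RAS GTPase-activating protein (chr13:85214699-85291486), was hit in 8 Nf1-hit tumours (44.4%) and 3 unhit tumours (9.09%). Its top sites had 11 to 126 reads in the former and 25 to 360 in the latter. The odds ratio was 3.05 (0.582 to 17.1, unadjusted p = 0.185), and by group the counts were 2 of 5 against 2 of 12 in the middle and 6 of 12 against 0 of 5 at the top. The 8 Nf1-hit tumours with a Rasa1 site came from 6 mice. With 1 tumour per mouse or the mouse as unit the sign turned (natural log odds ratio -0.0243, -0.143 and -0.312). Within mice that held both kinds of tumour, 8 Nf1-hit tumours had a Rasa1 site where 4.67 were expected (exact test stratified by mouse, not adjusted for the number of sites, unadjusted p = 0.00694, adjusted p = 0.563). Rasa2, of the same family, was hit in 4 and 1 tumours, and Spred1 and Spred2, membrane-bound inhibitors that bring neurofibromin to RAS, in 5 and 3 and in 5 and 4.

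A brake was hit in 14 Nf1-hit tumours (77.8%) and 7 unhit tumours (21.2%). In the low group 0 of 1 Nf1-hit and 1 of 16 unhit tumours had such a hit, in the middle group 3 of 5 and 4 of 12, and in the top group 11 of 12 and 2 of 5. Activators of the pathway were hit in 13 Nf1-hit tumours (72.2%) and 3 unhit tumours (9.09%), of which 11 of 12 and 1 of 5 stood in the top group. None of the 22 activators with a gene row was hit in enough tumours to be tested. Rasgrp3, an exchange factor that loads RAS with GTP, and Rras2, a RAS relative, were each hit in 3 Nf1-hit and 0 unhit tumours. These shares count a tumour with any member of the list hit and are not adjusted for the number of sites. The mean share per gene is another measure and gives no level for them. Over all 761 tested genes it was also higher in the Nf1-hit tumours of the top group, at 31.5% against 24.9%.

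No PI3K pathway gene passed the test. A PI3K brake was hit in 9 Nf1-hit tumours (50%) and 10 unhit tumours (30.3%), and in the top group in 8 of 12 and 5 of 5. An activator of the pathway was hit in 10 (55.6%) and 6 (18.2%), and in the top group in 8 of 12 and 2 of 5. Inpp4b, a lipid phosphatase, was hit in 6 Nf1-hit and 5 unhit tumours (odds ratio 0.696, 0.105 to 3.74). Pik3cb, which encodes the PI3K beta catalytic subunit, an isoform other than the alpha subunit BYL719 targets, was hit in 5 Nf1-hit and 0 unhit tumours. Its odds ratio was 7.14 with an unadjusted p of 0.153, and the 5 tumours had a median of 2203 sites.

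Kmt2c, a histone H3 lysine methyltransferase (chr5:25271794-25500783), was hit in 15 Nf1-hit tumours (83.3%) and 9 unhit tumours (27.3%), the smallest Fisher exact p among the genes described here (p = 0.000283 before and 0.0584 after Benjamini-Hochberg adjustment). With the number of sites in the fit the odds ratio was 3.21 (0.516 to 23.8, unadjusted p = 0.210). By group it was hit in 3 of 5 Nf1-hit against 3 of 12 unhit tumours in the middle and 12 of 12 against 4 of 5 at the top. Its top site had 47690 reads in Nf1-hit tumour 48, the second largest of that library, against 763 for the Nf1 site there, whereas in tumour 8 the order was 2460 reads for Kmt2c and 11401 for Nf1. Across Nf1-hit tumours the median top site of Kmt2c was 255 reads (24 to 47690) and across unhit ones 162 (12 to 3632).

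Trps1, a GATA-type repressor of the luminal lineage (chr15:50654759-50892041), was hit in all 18 Nf1-hit tumours and in 23 unhit tumours (69.7%), with an odds ratio of 7.33 whose interval ran from 0.664 to 1030. Zfx, an X-linked zinc finger factor (chrX:94074631-94125407), was hit in 9 Nf1-hit tumours (50%) and 2 unhit tumours (6.06%), with an odds ratio of 6.27 (1.17 to 42, unadjusted p = 0.0321). In the top group it was hit in 7 of 12 Nf1-hit and 0 of 5 unhit tumours, and in the middle group in 2 of 5 and 2 of 12. Esr1, the oestrogen receptor, was hit in 14 and 12 tumours (3.09, 0.79 to 13.1), Runx1 in 6 and 7 (1.49), and Zbtb20 in 11 and 12 (0.916).

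Among genes of WNT, NOTCH and Hippo signalling, 12 could be tested, 7 with odds ratios above 1 and 5 below, and none had an unadjusted p under 0.05. Lats1, a Hippo kinase, was hit in 8 and 2 tumours (4.03, 0.7 to 28.1), and all 8 stood in the top group of 12. Vgll4, which competes with YAP for TEAD factors, was hit in 10 and 4 (3.25, 0.678 to 16), and Tnik, a WNT pathway kinase, in 5 and 7 (0.28, 0.0336 to 1.59). Fbxw7, which picks the targets of a ubiquitin ligase, was hit in 10 and 12 tumours (0.8, 0.179 to 3.2) and Cul3, the scaffold of another, in 8 and 3 (2.4, 0.433 to 13.7). The list of MAP4K kinases, which also holds Map2k4 and Map3k1, had a member hit in 3 Nf1-hit tumours (16.7%) and 10 unhit tumours (30.3%). It was the 1 list of 18 with a lower share in the Nf1-hit set. Map4k3 was hit in 1 and 6 tumours (0.276, unadjusted p = 0.186 by Firth's logistic regression) and Map2k4 in 1 and 4.

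Long genes, which offer more TTAA sites, were read for comparison. All 20 had a row, 19 were tested, 9 with odds ratios above 1 and 10 below. Dmd, which encodes dystrophin and spans 2392 kb, was the 1 long gene with an unadjusted p under 0.05, hit in 12 and 7 tumours (4.28, 1.11 to 17.6, unadjusted p = 0.0350). Markers of other cell types (such as fibroblasts, endothelium and leukocytes) were hit in 4 Nf1-hit tumours (22.2%) and 2 unhit tumours (6.06%), and none could be tested. Over all 18 lists 0 members passed the adjusted test, against 0.0% of all tested genes, and 4.34% of all tested genes had an unadjusted p under 0.05.

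The same genes were read in the untreated tumours, where 8 Nf1-hit tumours leave wide intervals. Of the 20 genes ranked by p in resistant tumours, 18 could be fitted there, 0 had an unadjusted p under 0.05 by Firth's logistic regression and 6 had an odds ratio on the same side of 1. Pex7 was hit in 1 of 8 Nf1-hit and 16 of 86 unhit untreated tumours (0.613), Utrn in 5 and 56 (0.344) and Asxl2 in 1 and 8 (0.499). Reln was hit in 1 and 12 (0.328), on the side of the resistant tumours. Of 36 genes of the lists, 23 lay on the same side and 3 had an unadjusted p under 0.05. These were Cul3 (4 and 7 tumours, 8.82), Nipbl (0 and 13, 0.0614) and Ctnna2 (0 and 18, 0.0764). Ctnna2 ran opposite to the resistant tumours, where it was hit in 7 and 4 tumours with an odds ratio above 1. Only named genes were fitted in untreated tumours, so these counts have no share over all tested genes beside them and their p values were not adjusted. The difference between resistant and untreated tumours was tested by a product term, a test added after the data were seen. It passed for 0 of 620 genes (0.0%, lowest adjusted p = 0.988), with 29 genes (4.68%) at an unadjusted p under 0.05, led among the named genes by Lims1 (p = 0.00286) and Pex7 (p = 0.0119).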

How the data were processed

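Junction reads of 51 resistant and 94 untreated libraries, counted as tumours, were analysed from the authors' deposited table of 198107 sites. As deposited by the authors, it gives the count of reads per site and library as a whole number, with no scaling seen in the values. Per the labels' protocols, junctions at the 5' transposon arm were amplified by splinkerette PCR and sequenced in 4 pools with 100 bp paired reads. Coordinates are on mm10, as named in the submitters' processing notes; the aligner and site caller are not given in the sources used here. Resistant libraries held 51 to 1604365 reads (median 136932), and since amplified reads carry no molecular identifier, intervals cover counting of tumours only.

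Gene rows (13391) came from the authors' deposited region table, and 12384 had a RefSeq symbol by identifier. Further whole-number columns of 2 kinds, which no header of the deposited files defines, entered alternatives only, and 435 other per-library columns were not used. A position and strand was kept in the library with most reads, and 12 ties were kept in no library (0 in Nf1). A gene was hit by at least 1 kept site of 10 or more reads. Groups came from the treatment labels and mice from titles, and the labels say nothing further on replicates.

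Each gene hit in at least 5 and unhit in at least 5 resistant tumours was fitted by Firth's penalised logistic regression on Nf1 state and log10(sites outside Nf1 + 1), with penalised likelihood ratio tests, profile 95% intervals and Benjamini-Hochberg adjustment at 0.05. Python 3.11.15, numpy 2.4.6, scipy 1.17.1, pandas 2.3.3 and matplotlib 3.10.9 were used, and the scripts were tested on simulated data. Named genes are the 10 with the smallest p in each direction and every member of 18 lists (315 genes) tested and hit in at least 10 tumours; others named with the lists were chosen after their values were seen. Some genes are not reported here. The members, lists and tests were chosen with earlier results of these data known. Alternatives changed the read minimum, the site number adjustment, the tumours, the genes and the columns.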

Additional observations from a re-analysis of the deposited data

Results flagged for a closer look

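Among the 5 unhit tumours of the group with most sites, resistant tumour 26 had 315 tested genes hit, far above the other 4 (139 to 173). It had 2178 sites, the most of any unhit tumour, and its library had 1604365 reads, the most of all resistant libraries. Chance marks about 1 in 20 such groups in this way.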

How the results depend on the processing

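No gene passed the adjusted test in any of 25 alternatives. The number of genes at an unadjusted p under 0.05 was 33 in the reported fit. It moved by over 1.5 times to 182 by Fisher's exact test, 14 by the exact test stratified by number of sites, 9 with 50 reads per site, 8 with the 300 sites of most reads, 73 of 1799 when a gene needed 3 hit tumours, 9 of 158 when it needed 10, 16 and 17 with 1 tumour per mouse (that with most sites, or the Nf1-hit one), 19 with the mouse as unit, 61 of 760 by the exact test within mice (not adjusted for sites), and 0 with the third column kind (4 genes tested, 3 hit tumours). Where fewer genes or tumours entered, the counts fell with them; as a share of genes tested they lay between 1.84% and 5.70%, apart from Fisher's exact test (23.9%), the test within mice (8.03%) and the third column kind. Without tumour 10, left out after the data were seen, 31 of 666 genes were at an unadjusted p under 0.05 and none passed. The higher number of sites in Nf1-hit tumours and the differences by title form and gland kept their direction at every read minimum tried.

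Signs of single genes were less stable. Of 383 values of the genes ranked by p, 7 changed sign, and of 761 values of the list genes 81 did; the cause was not tested. The following are natural logs of the odds ratio of Nf1-hit to unhit tumours. By Fisher's exact test, the signs turned for Ank3 0.152, Dab1 0.710, Fhit 0.882, Ptprd 1.31, Pcdh9 0.788, Inpp4b 0.991, Fbxw7 0.754, Zbtb20 0.970, Tnik 0.364, Spag16 0.272, Nipbl 0.594, Macrod2 0.754, Ascc3 0.115, Csmd1 0.788, Lrp1b 0.542 and the chromosome 8 row 0.982. By the stratified exact test, the signs turned for Fhit 0.217, Ptprd 0.328, Pcdh9 0.116, Inpp4b 0.282, Zbtb20 0.134 and Csmd1 0.0125. With log10 total reads added, the signs turned for Mdga2 -0.256. With 5 reads per site, the signs turned for Fhit 0.337, Ptprd 0.358 and Lsamp -0.0203. With 20 reads per site, the signs turned for Ank3 0.369, Ctnna1 -0.157, Ptprd 0.253, Pcdh9 0.00027, Inpp4b 0.0408, Lsamp -0.573 and Mdga2 -0.128. With 50 reads per site, the signs turned for Ank3 0.584, Runx1 -0.545, Ptprd 0.00391, Pcdh9 0.205, Fbxw7 0.172 and Zbtb20 0.362. With the 300 sites of most reads, the signs turned for Ank3 0.555, Runx1 -0.0740, Esr1 -0.111, Ptprd 0.308, Ctnna3 -0.364, Fbxw7 0.344, Magi2 -0.538, Zbtb20 0.414 and Nipbl 0.260. With the second column kind, the signs turned for Fhit 0.339, Ptprd 0.365 and Lsamp -0.0207. With the third column kind, the signs turned for Fbxw7 1.31. With shared positions kept in every library, the signs turned for Ptprd 0.200. In the Tgtumor title form alone, the signs turned for Pcdh9 0.0782, Ctnna3 -0.448 and Zbtb20 0.156. With 1 tumour per mouse, that with most sites, the signs turned for Ctnnd2 -0.589, Ptprd 0.533, Ptprk -1.26, Rasa1 -0.0243, Vgll4 -0.126, Lingo2 -0.117, Mdga2 -0.514 and Zbtb20 1.18. With 1 tumour per mouse, the Nf1-hit one, the signs turned for Nrxn3 -0.384, Ptprd 1.58, Ptprk -0.121, Rasa1 -0.143, Zbtb20 1.27 and Ascc3 0.0704. Without hit tumours under 50 Nf1 reads, the signs turned for Ank3 0.153, Ctnna1 -0.0957, Fhit 0.0900, Pcdh9 0.117, Lsamp -0.0254 and Mdga2 -0.165. With the mouse as unit, the signs turned for Esr1 -0.505, Nrxn3 -0.482, Ptprd 1.08, Ptprk -1.69, Pcdh9 0.119, Dgkb -0.206, Rasa1 -0.312, Lingo2 -0.522, Cul3 -0.0612, Fbxw7 0.0441, Zbtb20 1.18 and Ascc3 0.907.

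Of 28 values of the sample measures 15 changed sign, and these differences of Nf1-hit minus unhit tumours, over the alternatives tried, were for log10 total reads (0.172, 0.0452, 0.00954), the percent of sites in gene rows (0.854, 0.347, 0.723, 0.917), the percent of reads at the top site (-3.29, -0.0991), the percent of reads at the top 5 sites (-6.64, -0.117, -1.42), the percent of plus-strand sites (-0.166, -0.0677) and the percent of sites at TTAA (-0.719). The percent of sites on chromosome 10 passed without grouping by number of sites (-4.65 points, adjusted permutation p = 0.0342).

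Replicate numbers only follow accession order and pair no tumours, so the mouse was the one block used. Leaving out each tumour in turn was not run, since the groups hold 18 and 33 tumours. With 18 hit tumours, genes hit in few tumours leave wide intervals, so a p that misses the threshold does not show that a gene was hit alike in both groups.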
